A study of Mus musculus with 6 samples.

Results

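The 3 input libraries of E14 TG2A mouse embryonic stem (ES) cells, 3 of the 6 libraries of the series, were read as a measure of chromosome copy number. An input library is sheared chromatin DNA sequenced without antibody, so that the tags falling in a stretch of the genome follow how many copies of it the cells carried, together with how well its sequence was amplified and mapped. Cells of this line, derived from a male embryo and lacking the start of Hprt, were held for 6 hours in 10 uM SB, an inhibitor of the Nodal/Activin type I receptors, and then grown for 18 hours in 25 ng/ml Activin (Activin input), in a 1/5000 dilution of the DMSO carrier (DMSO input) or in 10 uM SB (SB input), all in serum replacement medium without LIF. The other 3 libraries, 1 per treatment, were immunoprecipitated with a phospho-Smad2 antibody (ChIP). The study was made to compare Smad2 binding between the 3 signaling levels, and with 1 library per treatment no treatment had a replicate. No genotype differed between the groups, and the line stands for a clonal culture, not for normal mouse tissue.

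Mouse ES cells in culture acquire extra whole chromosomes, most often 8, and cells with such a gain can overgrow a culture. Short stretches can also be gained or lost, and stretches where the line's parental strain differs from C57BL/6J, the strain of the reference genome, look the same in tag counts. A change in culture and a strain difference cannot be told apart here, because no library of the parental strain or of an earlier passage was analysed.

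Tags that shared a position and strand were counted once, which left 10895120 tags in the Activin input, 11913742 in the DMSO input and 9786787 in the SB input. They were counted in 1 Mb windows of chromosomes 1 to 19 of mouse genome build mm9, of which 2380 of 2482 windows had at least 90% called bases, and in 23824 windows of 100 kb. The level of a window is its tags divided by those of the median autosomal window of the same library. The male sex and the missing start of Hprt, given above for the line, were seen in the data. The level of the single X of these male cells was 0.312, 0.309 and 0.302 in the Activin, DMSO and SB inputs, and 0.517, 0.523 and 0.526 after the adjustment given below. At Hprt, the purine salvage gene, a stretch of 36.2 kb (chrX:50316651-50352875) with exons 1 and 2 of 9 held 0, 0 and 1 tags in the Activin, DMSO and SB inputs and no tag in the 3 ChIP libraries, against a median of 24 tags per 10 kb on either side.

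The median window of chromosome 8 held 6468 tags in the Activin input, 6964 in the DMSO input and 5714 in the SB input, which was 1.55, 1.53 and 1.57 times the median autosomal window (124 windows). An input averages over the cells of a culture, so a gain in every cell and a larger gain in a share of the cells cannot be told apart. It held 7.72% of the autosomal tags in the Activin and DMSO inputs and 7.76% in the SB input (exact 95% binomial intervals 7.71 to 7.74% in DMSO and 7.74 to 7.78% in SB, counting error only), against 5.31% of the autosomal 35-mers that occur once in the genome. Chromosome 11 followed at 1.396, 1.402 and 1.429 (118 windows). The other 17 autosomes lay between 0.791 (chromosome 3, SB input) and 1.12 (chromosome 9, Activin input). By these values alone chromosomes 8, 9 and 11 passed a level of 1.1 in all 3 inputs, and chromosomes 3, 12, 14 and 16 fell at or under 0.9.

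The order of the chromosomes changed once base composition was taken into account. The tag rate per unique 35-mer rose with GC content by 3.32, 3.47 and 3.98 times between windows of 36% and 49% GC in the Activin, DMSO and SB inputs. Windows of chromosome 11 averaged 43.8% GC and those of chromosome 8 averaged 42.4%. Each window was therefore also divided by the value that its GC content and its unique 35-mers predicted, with the curve taken from the 17 autosomes other than 8 and 11 (adjusted level). Chromosome 8 then stood at 1.44, 1.45 and 1.44, or 2.88, 2.89 and 2.88 copies if the median stands for 2, while chromosome 11 fell to 1.111, 1.113 and 1.098. The other 17 autosomes came together between 0.942 (chromosome 7) and 1.05 (chromosome 10), as the plot of levels by chromosome shows. With the curve taken from all autosomes, as the rule for calling a chromosome required, chromosome 8 was at 1.42 in each of the 3 inputs and chromosome 11 at 1.09, 1.09 and 1.08. Chromosome 8 was thus called gained, chromosome 11 missed the limit of 1.1 in all 3 inputs, and no autosome was called lost.

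**Figure D1:**
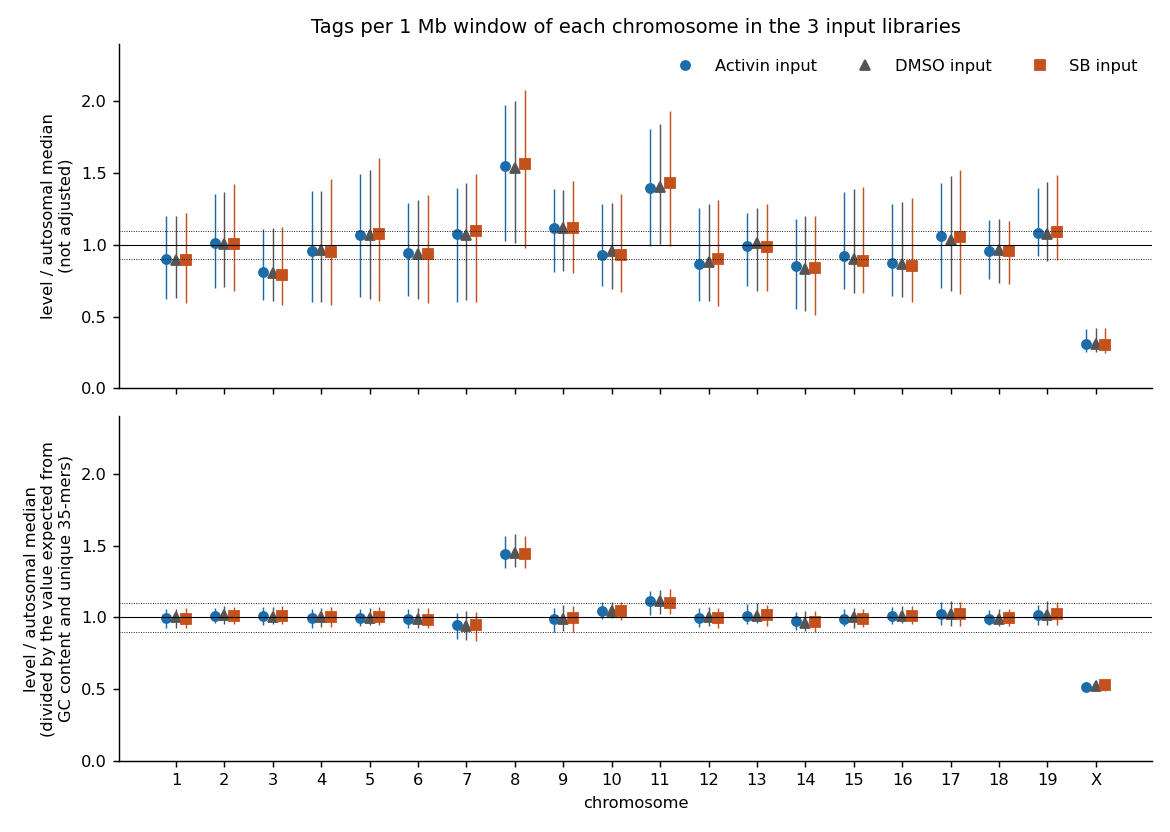
Level of chromosomes 1 to 19 and X in the 3 input libraries, as the median over 1 Mb windows (points) with the middle 50% of windows (lines), before adjustment (upper panel) and after it (lower panel), with dotted lines at 1.1 and 0.9. Chromosome 8 stays near 1.44 in all 3 inputs after adjustment, chromosome 11 drops from 1.402 to 1.113 in the DMSO input, and the wide lines of the upper panel shrink.

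Comparison within windows of like GC content gave the same picture without a fitted curve. In windows of 38 to 42%, 42 to 46% and 46 to 52% GC the tag rate of chromosome 8 was 1.463, 1.455 and 1.481 times that of the other autosomes in the Activin input. The corresponding values were 1.498, 1.467 and 1.478 in the DMSO input and 1.43, 1.43 and 1.44 in the SB input. For chromosome 11 the 9 values lay between 1.05 and 1.12. Chromosome 8 was therefore raised at every GC content by a similar factor, whereas the excess of chromosome 11 was far smaller within each GC class than over all its windows.

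**Figure D2:**
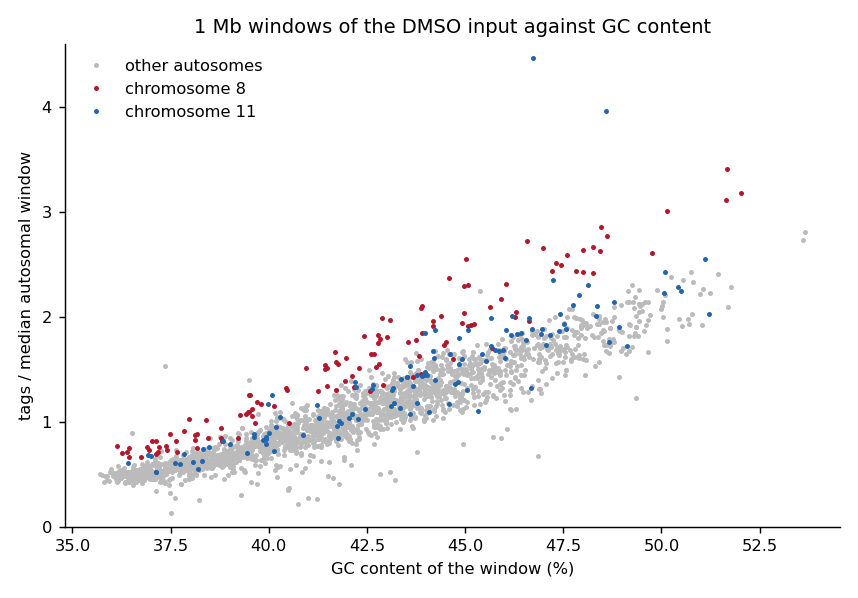
Tags of each 1 Mb autosomal window of the DMSO input over the median window (vertical axis) against the GC content of the window in percent (horizontal axis). Most windows of chromosome 8 (red) run along the upper edge of the band of other autosomes (grey) or above it at every GC content, and most windows of chromosome 11 (blue) lie within its upper part.

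The gain of chromosome 8 covered the chromosome. In blocks of 10 Mb the adjusted level ran from 1.32 to 1.56 in the Activin input, from 1.34 to 1.58 in the DMSO input and from 1.33 to 1.55 in the SB input, with no block near 1. The lowest blocks were the first and those at 90 to 100 Mb and 110 to 120 Mb, and the highest were those at 80 to 90 Mb and 120 to 130 Mb, in each of the 3 libraries. Of the 123 windows of chromosome 8 with enough unique sequence, 107 (87.0%) were at an adjusted level at least 25% above the autosomal median in all 3 inputs and 0 were at least 25% below it. Over all 2349 such windows of the autosomes, 6.43% were gained by this rule and 0.553% lost. In 100 kb windows 92.4% of chromosome 8 lay in segments called gained.

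Chromosome 11 was uneven. Its first 60 Mb had a median adjusted level of 1.15 in the Activin input, 1.13 in the DMSO input and 1.14 in the SB input, and the rest of the chromosome 1.06, 1.08 and 1.08. By blocks of 10 Mb it ranged from 0.990 to 1.174 in the Activin input and reached 1.199 in the DMSO and 1.203 in the SB input. Of its 118 windows 16 (13.6%) were gained in all 3 inputs, against 28 of 2108 windows (1.33%) on the autosomes other than 8 and 11. Without adjustment the same rule gained 756 of the 2380 windows (31.8%), 80 of them on chromosome 8 and 70 on chromosome 11, and called 711 lost (29.9%).

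**Figure D3:**
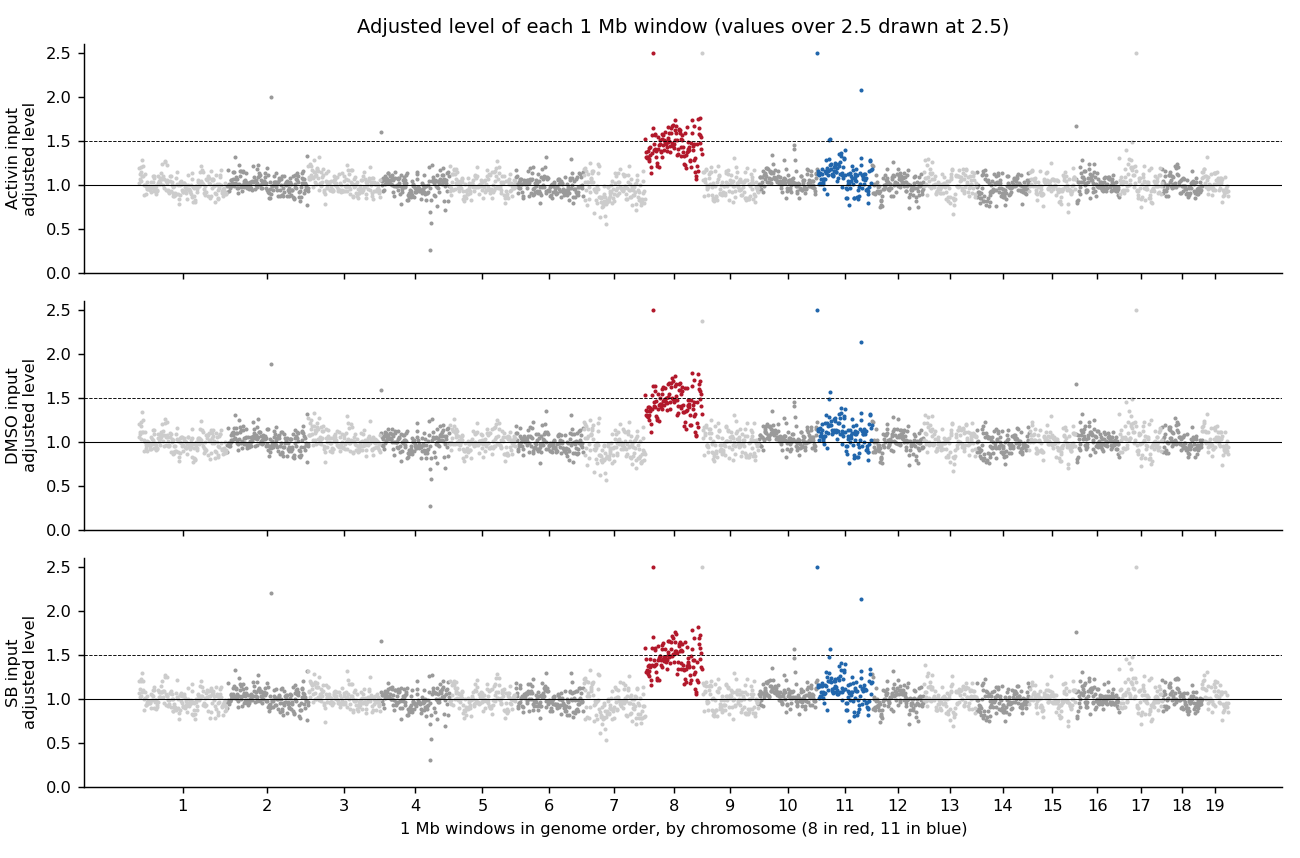
Adjusted level of each 1 Mb window (points, vertical axis) in genome order by chromosome (horizontal axis) in the Activin, DMSO and SB inputs, with lines at 1 and 1.5 and higher values than the axis allows drawn at its top. Chromosome 8 (red) forms a raised plateau in each library, chromosome 11 (blue) begins above 1 and comes down to it, and the few single windows far from 1 recur in all 3 panels.

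The 3 cultures carried the same gain. The adjusted level of a chromosome differed between the inputs by at most 0.0151 over the 19 autosomes, and that of chromosome 8 was 1.44 or 1.45 in every library. Adjusted levels of the same window correlated at r = 0.988 between Activin and DMSO, 0.984 between Activin and SB and 0.986 between DMSO and SB (Pearson, over 2348 windows, as a description of libraries that share their cells, base composition and preparation). Window by window, a two-sided exact binomial test on tags given the totals of both libraries, with Benjamini-Hochberg adjustment, called 15 windows (0.63%) for Activin against DMSO, 463 (19.5%) for SB against DMSO and 960 (40.3%) for Activin against SB. This test compares libraries and covers counting error only. The differences were small, with 95% of windows within 1.06-, 1.1- and 1.13-fold. When the expected share was taken from windows of equal GC content, the calls fell to 1 (0.042%), 6 (0.252%) and 13 (0.546%). On chromosome 8 these were 0, 0 and 1 windows of 124 (13, 12 and 15 at an unadjusted p under 0.05), and on chromosome 11 they were 0, 0 and 1 of 118 (12, 7 and 13). Before that correction chromosome 8 had 2 (1.61%), 36 (29.0%) and 58 (46.8%) windows called, for SB against DMSO 18 higher and 18 lower. Whole chromosomes were not tested between the libraries. Their shares of the unadjusted tags differed beyond counting error, as for chromosome 11 with 6.67% in the Activin input, 6.72% in the DMSO input and 6.83% in the SB input.

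The window with the smallest adjusted p between the inputs was chr17:39000001-40000000, which holds no protein-coding gene. It had 5942 tags in the Activin input, 6947 in the DMSO input and 7242 in the SB input, an adjusted level of 3.18, 3.51 and 4.70. Against DMSO it was higher in SB by 0.42 on the log2 scale with the expected share by GC content (adjusted p = 1.4e-63, exact binomial test). Only 66.9% of its 35-mers are unique.

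Within chromosomes, least-squares segmentation of the level in 100 kb windows, adjusted with the curve of all autosomes and averaged over the inputs, found 51 stretches of at least 5 windows at least 25% above 1 outside chromosome 8, together 50.6 Mb, and 9 at 0.75 or less, together 10.8 Mb. Chromosome 11 held 9 of the 51. Most of the gains were shallow, and in the inputs taken alone 34, 34 and 24 of the 51 and 8, 8 and 7 of the 9 losses were found again in Activin, DMSO and SB. Each input was part of the average that called these segments, so finding them again is no separate support. By the number of usable windows the 5 longest gains were chr11:48500001-52300000, chr11:27600001-31100000, chr11:59200001-62400000, chr1:58400001-60900000 and chr11:53000001-55000000. They hold 91, 25, 62, 35 and 43 protein-coding genes, the longest of which are Col23a1, Adamts2 and Olfr56, then Eml6, Ccdc85a and Spnb2, then Specc1, Ncor1 and Tom1l2, then Nbeal1, Gm973 and Bmpr2, and last Fstl4, Rapgef6 and Fnip1. Bmpr2 encodes a receptor for bone morphogenetic proteins and Ncor1 a transcriptional corepressor. The levels of the 5, averaged over the inputs, were 1.31, 1.44, 1.31, 1.27 and 1.37. Set against flanks of 500 kb, chr11:59200001-62400000 stood at only 1.115, 1.049 and 1.091 in the Activin, DMSO and SB inputs, so it barely differed from its surroundings. The others stood at 1.212 to 1.46 times their flanks.

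A shorter gain on chromosome 11, called the step gain here, stood out by its level and its edges, and was chosen for description after its values were seen. In the 15 windows of 100 kb from chr11:96700001-98200000 the DMSO input held 1091 to 2122 tags per window, the Activin input 976 to 1883 and the SB input 836 to 1958. The 10 windows before it held 658 to 979, 536 to 867 and 482 to 782 in the same order, and the 10 windows after it held 652 to 1430, 566 to 1279 and 508 to 1264, which overlap the counts inside. The median adjusted level inside was 2.02, 2.08 and 2.04 in the Activin, DMSO and SB inputs, against 1.17, 1.22 and 1.14 in the 1 Mb before it and 1.12, 1.17 and 1.16 in the 1 Mb after it, and the lowest adjusted window inside (1.58, 1.57 and 1.72) lay above the highest of these flanks in each library. The limits of the segment were placed on the adjusted levels of these same inputs, so this separation describes the segment and is no separate support for it. In 10 kb windows the best single break at the left edge fell at 96730001 in the Activin and DMSO inputs and at 96720001 in the SB input, and that at the right edge fell at 98330001 in all 3. Across the left edge the tag rate rose 2.08-, 2.27- and 2.77-fold, and across the right edge it fell to 0.504, 0.496 and 0.469 of its value. These breaks were placed on tag counts without adjustment for GC content, and the window between the end of the called segment and the right break, chr11:98200001-98300000 at 53.13% GC, had an adjusted level of only 1.24, 1.26 and 1.21, so the right edge differs between the scales. The called segment overlaps 42 protein-coding genes, of which Arhgap23, Cdk12 and Npepps are the longest, and holds Med1, a subunit of the Mediator complex, and Pcgf2, a Polycomb group protein.

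The 5 longest losses by the same measure were chr4:111700001-114400000, chr15:86200001-88400000, chr4:127100001-128300000, chr7:54500001-55700000 and chr9:104300001-105300000. The first covers the Skint gene family, epithelial genes of the immunoglobulin superfamily, and holds 10 protein-coding genes, the longest being Skint5, Skint6 and Gm12824. Its level was 0.375, 0.408 and 0.338 in the Activin, DMSO and SB inputs, and its emptiest windows of 100 kb held 5, 4 and 1 tags, or at most 0.0205 of the expected value. The break at its left edge fell at 111730001 in all 3 inputs, whereas at the right edge it fell between 114210001 and 114250001 and the tag rate rose only 1.24- to 1.34-fold. The loss of chromosome 7 covers 10 genes of the Mrgpr family of sensory neuron receptors, with Mrgpra2b, Mrgpra2a and Mrgpra1 the longest, at 0.585, 0.592 and 0.566. The other 3 lay between 0.726 and 0.763 and hold 2, 5 and 6 genes, with Tbc1d22a and Fam19a5, then Csmd2, CK137956 and Zscan20, and then Cpne4, Nek11 and Mrpl3 the longest. A further loss, chr6:130000001-130700000 at 0.692, 0.703 and 0.691, covers 9 genes, 7 of them natural killer receptor genes of the Klra family. Unique 35-mers made up 75.8%, 66.4% and 59.97% of the Skint, Mrgpr and Klra segments.

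**Figure D4:**
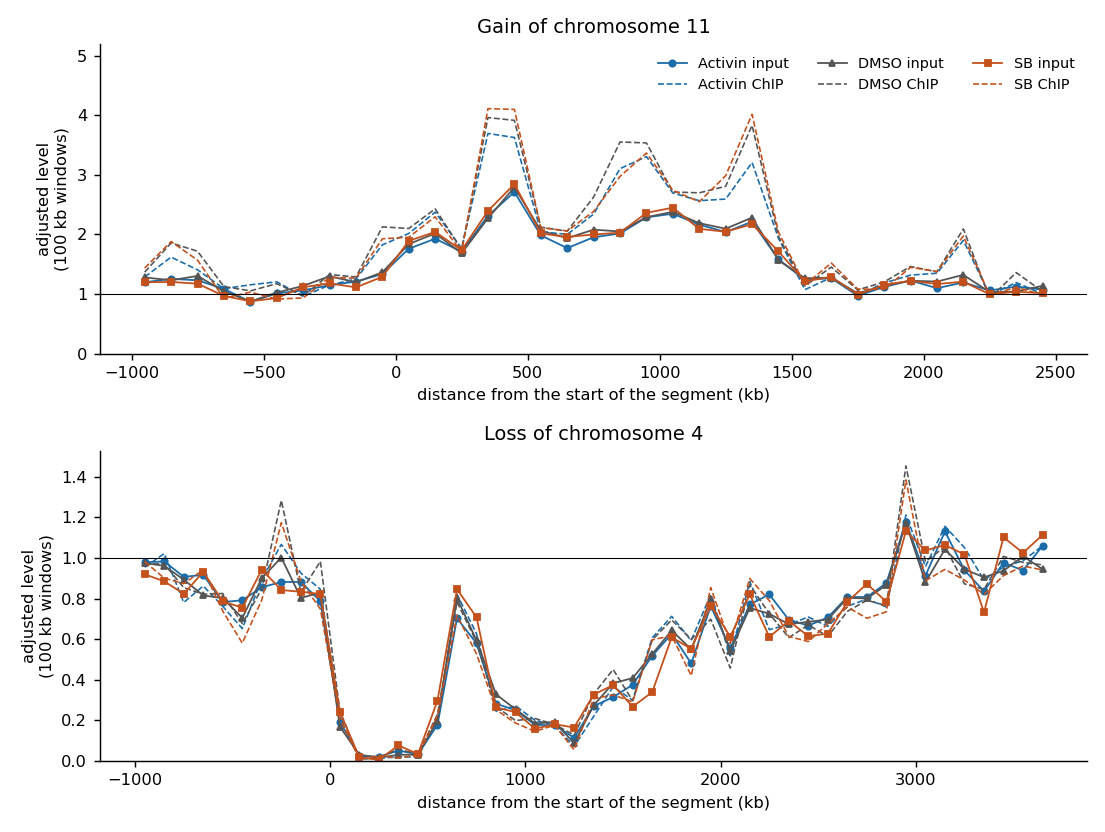
Adjusted level in 100 kb windows (vertical axis) against the distance from the start of the segment in kb (horizontal axis) for the gain of chromosome 11 and the loss of chromosome 4, with the inputs as solid lines and points and the ChIP libraries as dashed lines. The inputs step from near 1.2 to near 2 and back on chromosome 11, and drop to almost 0 at the start of the loss on chromosome 4, at the same windows in all 3 libraries.

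The gain with the highest level, chr4:145000001-147200000, stood at 3.95, 4.24 and 3.98 over 5 usable windows, holds 22 protein-coding genes with Gm13242, 2610305D13Rik and Gm13157 the longest, and has 50.9% unique 35-mers. Among 1 Mb windows, 6 were at an adjusted level of 1.8 or more in all 3 inputs and 3 at 0.6 or less. The 6 high windows included chr11:97000001-98000000, inside the gain above, and chr11:3000001-4000000 at 2.78, 2.75 and 2.77. That of chr2:98000001-99000000 held 4072 tags at separate positions in the DMSO input but 185226 with repeats counted, so its level depends on counting a position once.

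Of the 78 genes of the 4 lists fixed for this line (Nodal/Activin pathway, pluripotency, germ layer and trophectoderm, cell cycle and survival), 77 were found in the annotation, 2 of them on chromosome 8 and 7 on chromosome 11. The level is that of the 1 Mb around the middle of the gene. Klf2, a transcription factor of naive pluripotency on chromosome 8, had an adjusted level of 1.65 in the Activin input, 1.64 in the DMSO input and 1.68 in the SB input. Zfp42, a marker of undifferentiated ES cells also known as Rex1, lies on the same chromosome and had 1.55, 1.61 and 1.63. On chromosome 11 the values were 1.192, 1.217 and 1.199 for Smurf2, a ubiquitin ligase that targets the pathway, and 1.23, 1.26 and 1.28 for Birc5, an inhibitor of apoptosis. They were 1.15, 1.17 and 1.18 for Trp53, the p53 tumor suppressor, 1.105, 1.115 and 1.096 for the DNA repair gene Brca1 and 1.14, 1.13 and 1.13 for Hand1, a trophectoderm and mesoderm factor. Stat3, which carries the LIF signal, had 1.079, 1.099 and 1.083, and Top2a, a topoisomerase of dividing cells, had 1.07, 1.08 and 1.05. None of these 7 genes lies in the step gain. Smurf2 lies in another called gain, chr11:106400001-107500000, which stood at 1.286, 1.324 and 1.263 in the Activin, DMSO and SB inputs.

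Genes off both chromosomes had adjusted levels between 0.7503 and 1.318 with a median of 1.05 (68 genes). In all, 5 genes were at least 25% above 1 in all 3 inputs and 0 at least 25% below it, against 6.43% and 0.553% of all windows. Besides Klf2 and Zfp42 they were neighbors on chromosome 6, namely Gdf3, a ligand of the pathway (1.31, 1.30 and 1.30), Nanog, a core pluripotency factor (1.29, 1.28 and 1.27), and Dppa3, a germline and pluripotency marker (1.32, 1.31 and 1.31), whose windows overlap and are not independent. The lowest was Tgfbr1, a type I receptor of the pathway, with 0.7784, 0.755 and 0.7503. Gdf3, Nanog and Dppa3 lie in the called gain chr6:122200001-122800000. Skil, of the pathway list, lies in the called gain chr3:30400001-31100000, at 1.299, 1.376 and 1.312 in the Activin, DMSO and SB inputs. The 1 Mb around Skil stood lower, at 1.165, 1.189 and 1.154. Without adjustment 58 of the 77 were at least 25% above the median, against 31.8% of all windows. The GC content around these genes went up to 50.4% (Birc5). Nodal itself, in a window of 48.63% GC, stood at 1.99, 2.06 and 2.20 before adjustment and 1.07, 1.09 and 1.07 after it.

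The same gain was present in the ChIP libraries outside the listed peaks. Over 1 Mb windows the ChIP level rose with the input level of the same treatment with a slope of 0.958 in Activin, 0.945 in DMSO and 1.01 in SB (r = 0.991, 0.985 and 0.989 over 2344, 2344 and 2341 windows that share GC content and unique sequence). Chromosome 8 stood at 1.52, 1.52 and 1.51 in the ChIP libraries, against 1.504, 1.515 and 1.529 in the inputs counted in the same way, and chromosome 11 at 1.381, 1.403 and 1.423 against 1.402, 1.395 and 1.416. Divided window by window, ChIP over input was 1.01, 1.01 and 1.00 on chromosome 8 and 1.01, 1.02 and 1.01 on the autosomes other than 8 and 11. The background of the ChIP libraries thus carried the gain of chromosome 8 in proportion, and division by the input of the same treatment removed it. In the step gain of chromosome 11 the ChIP libraries, with tags in peaks kept, were at an adjusted level of 2.57, 2.70 and 2.55. The inputs were at 2.02, 2.08 and 2.04. Outside listed peaks the ChIP libraries were also higher there. Over its 15 windows of 100 kb, not adjusted, they stood at 4.285, 4.209 and 4.871 against 3.79, 3.826 and 4.35. In its 1 window of 1 Mb the adjusted levels were 2.33, 2.402 and 2.407 against 2.066, 2.123 and 2.113. The proportion seen on chromosome 8 was thus not kept in the step gain, and the cause was not tested.

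The lists of phospho-Smad2 peaks, which the authors called on each ChIP library against its input, were denser on both chromosomes than on the other autosomes. Chromosome 8 had 363 peaks in the Activin list, 563 in the DMSO list and 333 in the SB list, or 2.91 (95% Poisson interval 2.62 to 3.22), 4.51 (4.15 to 4.90) and 2.67 (2.39 to 2.97) per Mb of called bases. The autosomes other than 8 and 11 had 1.93 (1.88 to 1.99), 2.80 (2.73 to 2.87) and 1.79 (1.73 to 1.85). The ratios were 1.504, 1.613 and 1.492. The autosomes other than 8 and 11 ranged by themselves from 1.32 (chromosome 14) to 3.06 (chromosome 17) in the Activin list, and the density of chromosome 8 lay within their range in the Activin and SB lists but above it in the DMSO list, where the highest was 4.15 (chromosome 17). In windows of 38 to 42% GC chromosome 8 had 2.04 (1.61 to 2.548) peaks per Mb in the Activin list, 3.495 (2.92 to 4.15) in the DMSO list and 1.51 (1.14 to 1.96) in the SB list, against 1.13 (1.06 to 1.21), 1.56 (1.47 to 1.64) and 0.832 (0.771 to 0.897). Those intervals do not overlap in any of the 3 lists. At 42 to 46% GC they overlap in the Activin and DMSO lists, and at 46 to 52% GC they are apart in the Activin and DMSO lists but overlap in the SB list, at 6.18 (5.19 to 7.31) against 4.97 (4.71 to 5.24). Chromosome 11 had 3.84, 5.75 and 3.98 peaks per Mb, above every other autosome. At 42 to 46% GC it had 3.62, 5.30 and 3.24, against 3.12, 4.40 and 3.05 on chromosome 8. At 46 to 52% GC it had 6.815, 10.3 and 7.65, against 6.27, 9.41 and 6.18. At 38 to 42% GC it had 1.52, 2.15 and 1.52, lower than chromosome 8 in the Activin and DMSO lists. A higher density at like GC content was thus not particular to chromosome 8, and the part of copy number in it was not tested.

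The step gain of chromosome 11 was the densest of these stretches. The called 1.5 Mb held 38 peaks of the Activin list, 69 of the DMSO list and 38 of the SB list, or 25.3 (17.9 to 34.8), 46 (35.8 to 58.2) and 25.3 (17.9 to 34.8) per Mb, against 3.57, 5.24 and 3.71 on the rest of the chromosome. In other terms 0.746%, 0.93% and 0.799% of each list came from this stretch. Density also rises with GC content and with genes, and the part of these in the value was not tested.

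**Figure D5:**
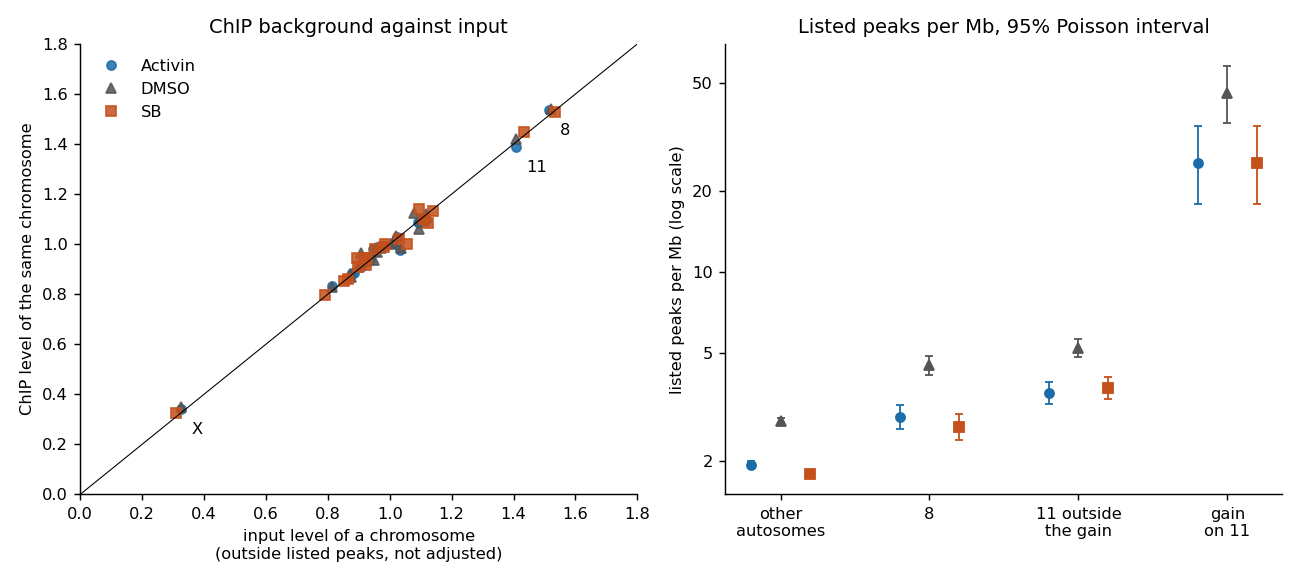
Left, level of each chromosome in the ChIP library outside listed peaks against its level in the input of the same treatment, not adjusted, with the line of equality; chromosomes 8 and 11 lie near 1.5 and 1.4 on both axes and X near 0.3. Right, listed peaks per Mb with 95% Poisson intervals on a log scale, which reach 25.3 to 46 in the gain on chromosome 11.

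Listed peaks were also set against a single autosomal background rate, with and without the level of the chromosome. The authors had called them against the input, which carries the same gain, so the counts describe this rate and not the calling of the lists. Each peak was given an interval of 500 bp around its highest pileup, and its tags were set against the autosomal rate outside peaks (2.08, 1.90 and 1.53 tags per interval in Activin, DMSO and SB) at a Poisson p of 1e-05. Of the listed autosomal peaks 81% passed in the Activin list, 82.8% in the DMSO list and 90.8% in the SB list, and of those of chromosome 8 324 of 363 (89.3%), 490 of 563 (87.0%) and 320 of 333 (96.1%). With the rate multiplied by the level of chromosome 8 in the input, a peak needed 14, 14 and 12 tags in place of 12, 11 and 10, and 32, 59 and 38 of the peaks of chromosome 8 no longer passed. A level above 1 can only remove peaks, so this direction was fixed beforehand. With the adjusted level 32, 34 and 38 peaks of chromosome 8 no longer passed. On the autosomes other than 8 and 11, each with its own unadjusted level, 0, 30 and 49 of 4158, 6015 and 3845 peaks no longer passed. There 179, 62 and 39 others newly passed. On chromosome 11, 395 of 456 (86.6%), 610 of 683 (89.3%) and 433 of 473 (91.5%) passed without the level, and 57, 65 and 41 no longer did with it. With the adjusted level of chromosome 11 in place of the unadjusted 0, 39 and 21 of them remained below the limit, so that the counts of chromosome 11, and that of chromosome 8 in the DMSO list, depended on the adjustment.

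The peaks with most listed tags among those that no longer passed with the unadjusted level lay nearest to 4933402J07Rik, Kpnb1, 1810046J19Rik, Cog8 and Gga3 in the Activin list. Kpnb1, which encodes importin beta, lies in the step gain of chromosome 11. In the DMSO list they lay nearest to Sc4mol, a sterol synthesis enzyme that had 2 such peaks, 1700067K01Rik, Foxf1a, a forkhead factor of mesoderm, and Rbpms. In the SB list they were Setd6, Tomm20, a mitochondrial import receptor, Mcf2l, Irx5, a homeobox gene, and, on chromosome 7, Irf2bp1. Near Irx5, for example, the interval held 11 tags where the autosomal rate gave 1.53 and that rate times the level of chromosome 8 gave 2.39 (Poisson p of 6.5e-07 and 4.1e-05), 0.82 kb from the start of the gene. These peaks had 23 to 174 tags in the lists but 10 to 13 in the interval of 500 bp counted here. Several of them passed again with the adjusted level. These were the peaks near Kpnb1, 1810046J19Rik and Gga3, since 0 peaks of chromosome 11 were lost in the Activin list. In the DMSO list a peak of chromosome 8 then needed 13 tags, which all the named peaks had except 1 near Sc4mol with 12. Irf2bp1 also passed, since 0 SB peaks were lost on the autosomes other than 8 and 11.

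Background outside every listed peak passed the same limit more often on chromosomes 8 and 11 than on the other autosomes. Of 243424 tiles of 500 bp on chromosome 8, 3317 of the Activin library, 3896 of the DMSO library and 3902 of the SB library had a Poisson p of 1e-05 or less, or 136, 160 and 160 per 10000, against 21.9, 30.8 and 35.3 on the autosomes other than 8 and 11. With the rate multiplied by the level of chromosome 8 they were 62.4, 47.3 and 75.6. On chromosome 11, which was not called gained, 82.4, 107 and 113 per 10000 tiles passed. These became 39.2, 48.5 and 51.2 with its unadjusted level and 82.4, 72.3 and 75.8 with its adjusted level. Tiles were not matched for GC content. In the step gain of chromosome 11 1630, 1890 and 1740 per 10000 tiles passed. A single autosomal background rate therefore let through several times more stretches of chromosome 8, as it also did on chromosome 11. Multiplying it by the unadjusted level of the chromosome took away most of the excess on both.

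Between ChIP libraries, regions on chromosome 8 were called about as often as all regions. Of 13223 merged regions of the 3 lists, the two-sided exact binomial test with Benjamini-Hochberg adjustment called 25 (0.189%) for ChIP Activin against ChIP DMSO, 288 (2.18%) for SB against DMSO and 1125 (8.51%) for Activin against SB. On chromosome 8 the calls were 2 (0.203%), 26 (2.64%) and 79 (8.03%) of 984 regions, with 95% exact binomial intervals of 0.0246 to 0.732%, 1.73 to 3.85% and 6.41 to 9.91%, which hold the share over all regions in each comparison. With the expected ratio multiplied by the ratio of the chromosome in the 2 inputs, they were 2, 25 and 78. With tags that share a position counted each time, the calls on chromosome 8 rose to 115 (11.7%), 131 (13.3%) and 158 (16.1%). Those over all regions rose to 1772 (13.4%), 1791 (13.5%) and 2251 (17%), so the calls depend everywhere on how such tags are counted. On chromosome 11 the calls were 1, 22 and 103 of 1215 and became 1, 19 and 99. The test compares single libraries, and a call does not stand for the treatment.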

How the data were processed

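Deposited tag files of 6 libraries (3 inputs, 3 ChIP) held the positions of mapped 35 bp tags, which the authors had sequenced on a Genome Analyzer II after 18 PCR cycles and aligned to mm9, per the labels; the aligner was not given in the sources used here. Their 3 deposited peak lists gave a position and a tag count for each peak as the authors called it. From these, tags were counted once per position and strand. The reference used was NCBIM37, the assembly of mm9, with its GENCODE gene annotation, and tags lay within its chromosomes except 1 past the end of chromosome 19. Uniqueness was taken from 35-mers sampled every 100 bp: 99.7% of sampled DMSO input tags started at a unique 35-mer, against 84.8% of all sampled positions. Windows with under 30% unique 35-mers were left out of adjusted values. GC curves were medians per 1% GC with at least 20 windows. Segments used a penalty of 20 times the noise variance per break, and neighboring segments past the same limit were joined. Exact binomial p-values were 2 times the smaller tail. Peak intervals counted tags shifted by 100 bp.

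Total deposited tags ran from 9757735 to 13148559 per library, and 5.64 to 6.94% of input tags and 19.9 to 24.6% of ChIP tags shared a position; intervals cover counting error only. The chromosomes singled out, the windows, gene lists and tests were chosen with earlier results of these data known. Named genes were all members of the 4 lists on a called chromosome or segment or 25% above or below 1, and the 3 longest genes of the 5 longest segments each way. To these were added the genes nearest to 5 peaks of each list. They were the peaks with most tags that passed the single autosomal rate only without the unadjusted level of their chromosome. Chromosome 11 was added by its level. Sox1 was not in the annotation, and Tfcp2l1 and Tfap2c were matched by RefSeq synonyms. Statistics were tested on simulated data. Alternatives covered repeated tags, window size, scaling, GC correction, thresholds and interval width. Software was Python 3.11.15 with numpy 2.4.6, scipy 1.17.1, pandas 2.3.3 and numba 0.67.0.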

Additional observations from a re-analysis of the deposited data

How the results depend on the processing

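Of 127 recomputed values 60 kept within the spread of the main value or within 1.5 times of its count, 67 moved and 0 changed direction. The mean level of chromosome 8 over the 3 inputs, 1.55, became 1.5 in 100 kb windows, 1.42 with the GC and uniqueness adjustment, 1.44 scaled by the mean window, 1.61 scaled by the median of chromosome medians and 1.48 as total tags per called base, and, by choices made after seeing the data, 1.44 with the curve without chromosomes 8 and 11 and 1.49 with the GC content of the fragment. That of chromosome 11, 1.41, became 1.45, 1.09, 1.31, 1.47, 1.36, 1.11 and 1.2 in the same order, so its call depends on the adjustment. The 756 gained and 711 lost windows became 147 and 15 with the adjustment and 151 and 13 with the curve without chromosomes 8 and 11, and 395 were lost at the stricter limit of 0.6. Between inputs, the 15, 463 and 960 windows (Activin and DMSO, SB and DMSO, Activin and SB) became 1, 6 and 13 with the expected ratio by GC content, 0, 55 and 266 in 100 kb windows and 0, 112 and 334 at an adjusted p under 0.001 (exact binomial test; 305, 817 and 1195 of the 1 Mb windows at an unadjusted p under 0.05), and the first became 26 with all deposited tags. The 51 gains and 9 losses became 18 gains with a penalty 2 times as large, 316 and 285 with no adjustment, and 15 and 5 with segments of at least 10 windows; losses were 14 in the DMSO input and 15 in the SB input alone. In the ChIP libraries the mean slope of 0.972 became 1.03 with tags in peaks kept and 1.09 adjusted, chromosome 8 went from 1.52 to 1.39 in 100 kb windows and 1.44 adjusted, and chromosome 11 from 1.4 to 1.43, 1.44 and 1.14 with peak tags kept, in 100 kb windows and adjusted. Peaks per Mb with more than 12 tags only were 2.6 (Activin) and 3.6 (DMSO) on chromosome 8 and 3.48, 4.44 and 3.6 on chromosome 11. The 32, 59 and 38 peaks of chromosome 8 became 57 (Activin) and 68 (SB) at a Poisson p of 1e-07 and 34 (DMSO) with the adjusted level. Regions of chromosome 8 called between ChIP libraries became 115, 131 and 158 with all deposited tags and 0, 5 and 25 at an adjusted p under 0.001. The first were 11.7%, 13.3% and 16.1%, against 13.4%, 13.5% and 17% of all regions. The second were 0%, 0.508% and 2.54%, against 0.0227%, 0.378% and 1.52%. Where no other value shows it, the cause of a move was not tested. No paired analysis was possible because each treatment has 1 input and 1 ChIP library and the labels carry no replicate numbers; for the same reason no replicate could be left out.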

Other observations

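Several values belong to no comparison above. The 9 losses and the gains outside chromosome 8 were also read in the ChIP libraries, which were not used to call them. Those libraries come from the same line, share GC content and unique sequence with the inputs, and follow them window by window. The same direction in them is therefore no separate support for a change in copies. All 9 losses lay below 1 in each of the 3 ChIP libraries, with medians of 0.687, 0.698 and 0.679 in Activin, DMSO and SB, and all 51 gains lay above 1, with medians of 1.48, 1.58 and 1.55, higher than the 1.33, 1.37 and 1.34 of the inputs. The ChIP values include tags in listed peaks.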
